A study of Homo sapiens with 2 samples.

Results

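Nucleoporins are the proteins that build the nuclear pore complex, the channel through which proteins and RNA pass between nucleus and cytoplasm. The genes were taken by name from the table of 58884 Ensembl genes: protein-coding genes whose symbol is NUP followed by a digit, plus AAAS, SEH1L, SEC13, RANBP2, TPR, NDC1, POM121, RAE1 and GLE1. The paralog NUP62CL was left out. This gave 31 genes on 17 chromosomes. The cells were TPC-1, an established human line from a papillary thyroid carcinoma, and 2 RNA-seq libraries were made, 1 from cells given a control siRNA and 1 from cells given an siRNA targeting XPR1, the cell's phosphate exporter. Both libraries share the cell line, the transfection and the RNA kits. The sources used here give neither the siRNA sequences nor how long after transfection RNA was taken. The design compares gene expression with and without knockdown of XPR1.

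The pore is a stack of rings set in the nuclear envelope. The Y complex, named for its shape, forms the outer rings on both faces, the inner ring lies between them, and membrane proteins anchor the rings. Nucleoporins rich in phenylalanine-glycine (FG) repeats fill the central channel and bind transport receptors, filaments reach into the cytoplasm, where exported mRNA is released, and a basket reaches into the nucleus. In dividing human cells the pores are taken apart at mitosis and rebuilt afterwards, and new pores are also inserted while the nucleus grows in interphase. Several nucleoporins, the Y complex among them, are found at kinetochores during mitosis.

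Levels are in TPM (transcripts per 1000000), which the authors deposited and which allow for gene length. With 1 library per group, no difference has a replicate check and no test of the conditions was possible. Differences are log2(TPM + 1) in the XPR1-siRNA library minus control, folds are plain TPM ratios, and a gene is called higher or lower here when that difference reaches 1.5-fold. Intervals are 95% Clopper-Pearson intervals from recovered reads (about 15780000 and 15150000 per library), and they cover counting error only. In bulk RNA a shift in the makeup of the culture and a change of RNA within each cell cannot be told apart. XPR1 itself was 39.2 TPM in control and 5.31 TPM after its siRNA, 7.39-fold lower (6.35 to 8.63). Of 12 thyroid and epithelial markers, 5 had a mean of at least 1 TPM, led by PAX8 at 588.1 and 408.6 TPM, while the defining markers NKX2-1, TSHR and EPCAM were listed at 0 in both libraries and thyroglobulin (TG) was 1.06 and 0.929 TPM. None of 9 leukocyte markers had a mean of 1 TPM (summed level 1.04 and 1.66 TPM, highest single value 0.598 TPM), and 4 of them were at 0 in both libraries. Of 6 endothelial and 6 fibroblast markers 1 each did, PECAM1 (1.47 and 0.859 TPM) and COL1A1 (1.04 and 6.67 TPM). The endothelial list summed to 2.78 and 1.93 TPM, and the fibroblast list to 1.31 and 7.78 TPM. The part of such cells in the results was not tested.

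In the XPR1-siRNA library, 5 of the 13 Y complex and inner ring genes (38.5%) were called higher, against 20.7% of protein-coding genes. So were 2 of the 3 expressed membrane ring genes. All 13 genes of the channel, the cytoplasmic filaments and the basket lay within 1.5-fold of control. The same held for 7980 of 11698 protein-coding genes averaging 1 TPM or more. These groupings were drawn after the values were seen. Of the 31 nucleoporins, 29 had a mean of at least 1 TPM, and 7 of these were at least 1.5-fold higher: NUP37, NDC1, AAAS, SEC13, NUP107, NUP85 and NUP188. None was 1.5-fold lower, and 22 lay within 1.5-fold. The 7 make up 24.1% of the 29, against 20.7% of 11698 protein-coding genes called higher at the same level (21.7% of all 16319 genes), so the share of higher members is near the background. Of protein-coding genes 11.1% were called lower (16.6% of all genes), against 0 of 29 nucleoporins. At 2-fold, NUP37 and NDC1 were higher and no member was lower, where 8.75% of protein-coding genes were higher and 4.57% lower. The median difference of the 29 was 0.23, against 0.10 for protein-coding genes and 0.05 for all genes. In 21 of the 29 the value was above control, which was so for 57.0% of protein-coding genes. Counting intervals lay above equality for 18 members, below it for 5, and held it for 6. No such count over all genes is given, so these counts have no background to be set against.

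**Figure D1:**
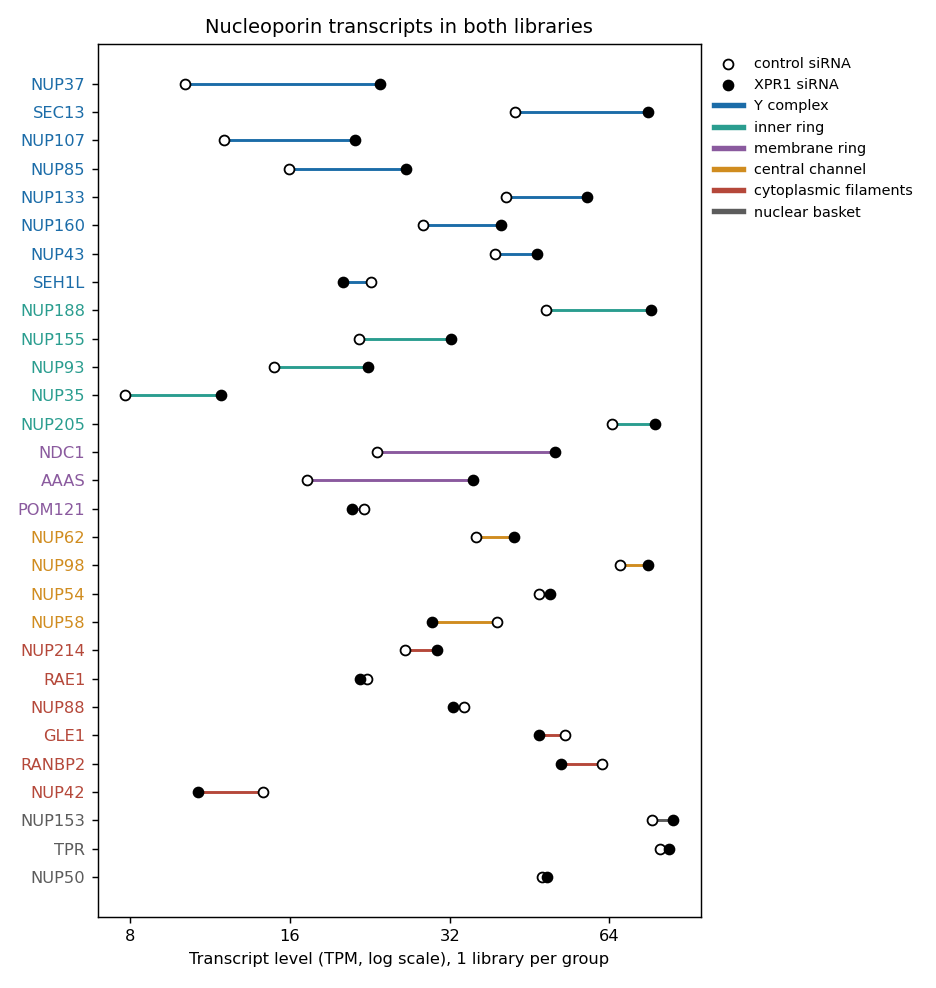
Transcript level of the 29 nucleoporins averaging 1 TPM or more (x axis, TPM on a log scale) in the control library (open circles) and the XPR1-siRNA library (filled circles), coloured by part of the pore, with 1 library per group. Levels in control ran from 7.83 TPM (NUP35) to 79.7 TPM (TPR), and the filled circle lies to the right for all but SEH1L in the Y complex and for every inner ring gene.

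Of the 8 Y complex genes in the named set, 4 were called higher (50%, beside 20.7% of protein-coding and 21.7% of all genes). Of the others, 3 were above control within 1.5-fold and 1 was below control. NUP37, a small propeller-shaped subunit, was 10.1 TPM in control and 23.7 TPM with XPR1 siRNA (the order kept from here on), 2.34-fold higher (1.92 to 2.85), the largest difference of any nucleoporin. The gene (ENSG00000075188) lies on chromosome 12 from 102073103 to 102120124 on the minus strand of GRCh38. SEC13, a propeller that also serves in the COPII coat of vesicles leaving the endoplasmic reticulum (ENSG00000157020, chromosome 3, 10293131 to 10321178), was 42.4 and 75.7 TPM, 1.78-fold higher (1.65 to 1.93). NUP107, in the stem of the Y (ENSG00000111581, chromosome 12, 68686734 to 68745809), was 12.0 and 21.2 TPM, 1.77-fold higher (1.57 to 2.00). NUP85, in one arm of the Y (ENSG00000125450, chromosome 17, 75205659 to 75235758), was 15.9 and 26.5 TPM, 1.66-fold higher (1.45 to 1.91). Of these 4, SEC13 had the highest control level among the 8. NUP37, NUP107 and NUP85 had lower control levels than any other of the 8.

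The other Y complex genes were nearer to control. NUP133, at the tip of the stem, was 40.8 and 58.1 TPM, 1.42-fold higher (1.31 to 1.54). NUP160, in the other arm, was 28.5 and 39.9 TPM, 1.40-fold higher (1.29 to 1.52). NUP43, a propeller bound to NUP85, was 38.9 and 46.6 TPM. SEH1L, the propeller that pairs with NUP85 and also belongs to the amino acid sensing complex GATOR2, was 22.7 and 20.1 TPM, 1.13-fold lower (1.03 to 1.24). SEH1L and NUP85, partners in the arm, thus differed in opposite directions. The median difference of the 8 was 0.60, and their summed level was 211.4 and 311.8 TPM, a ratio of 1.48.

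NUP37 and NUP58, a channel gene that was 1.33-fold lower, had the highest and the lowest difference. Their promoter windows, 250 bases before to 50 after the start, are shown from RefSeq on GRCh38.p14, 5′ to 3′ along the gene. Capitals mark matches, on either strand, to CCAAT (the box that NF-Y binds), CACGTG (an E-box) or TTTGAA (the core of the cell cycle element CHR, bound by DREAM and MYB-MuvB complexes).

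NUP37, chr12:102120065-102120364, minus strand: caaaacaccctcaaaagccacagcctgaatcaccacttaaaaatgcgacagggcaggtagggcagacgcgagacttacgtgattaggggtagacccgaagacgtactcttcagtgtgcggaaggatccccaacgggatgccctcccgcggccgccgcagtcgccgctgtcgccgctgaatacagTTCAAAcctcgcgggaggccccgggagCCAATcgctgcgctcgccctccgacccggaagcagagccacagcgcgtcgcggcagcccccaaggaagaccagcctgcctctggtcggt

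NUP58, chr13:25301375-25301674, plus strand: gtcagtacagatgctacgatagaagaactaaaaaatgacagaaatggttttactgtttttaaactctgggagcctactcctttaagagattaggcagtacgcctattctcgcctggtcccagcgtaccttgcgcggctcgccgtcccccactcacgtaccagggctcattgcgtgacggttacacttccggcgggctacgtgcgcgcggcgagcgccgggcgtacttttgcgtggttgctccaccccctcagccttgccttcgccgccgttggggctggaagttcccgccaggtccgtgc

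The NUP37 window holds a CHR core, read as TTCAAA, 66 bases before the start and a CCAAT box 39 bases before it, and the NUP58 window holds none of these letters. The table gave 38 windows for 29 of the 31 genes, with several starts for some and none for GLE1 and NUP43. TTTGAA occurred in 10 of the 38 (26.3%), against 12.4% of 22198 windows of protein-coding genes, CCAAT in 16 (42.1%, against 34.7%) and CACGTG in 2 (5.26%, against 8.34%). A window with both TTTGAA and CCAAT was found 6 times (15.8%, against 4.97%), in NUP37, NUP35, NUP93, NUP98 and NUP205. Of the 7 genes called higher, NUP37 and NDC1 had TTTGAA, and NUP37, NUP107 and NUP85 had CCAAT. Of these 7, NUP188 alone had CACGTG, 2 times. By window, 2 of their 8 held TTTGAA and 3 of their 8 held CCAAT, near the shares in all 38. TTTGAA also lay in windows of NUP50, NUP153 and NUP98, none of which was called higher. Windows of one gene can overlap, and a match says only that the letters are there. The median GC content was 63.5% in the 38 windows and 62.3% in protein-coding ones.

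All 5 inner ring genes were above control, 1 of them called higher and 3 just short of the threshold. NUP188, a large scaffold protein (ENSG00000095319, chromosome 9, 128947699 to 129007096), was 48.7 and 76.7 TPM, 1.58-fold higher (1.48 to 1.68). That difference of 0.65 became 0.56 with upper-quartile scaling, 0.57 with trimmed-mean scaling and 0.58 with a trend on level removed, each under the threshold. Its paralog NUP205, the most abundant of the 5 in both libraries, was 64.7 and 78.0 TPM, 1.21-fold higher (1.14 to 1.28). The intervals of these 2 paralogs did not overlap. NUP155, which contacts the membrane, was 21.6 and 32.2 TPM, 1.496-fold higher (1.37 to 1.64). NUP93, which links the scaffold to the channel, was 14.9 and 22.5 TPM, 1.503-fold higher (1.36 to 1.66). NUP35, a membrane-binding subunit and the scarcest in control, was 7.83 and 11.9 TPM, 1.52-fold higher (1.21 to 1.90). On plain ratios, without the added 1 TPM, NUP93 and NUP35 also pass 1.5-fold, which makes 9 of 29 members. The background rises too, from 2424 to 2738 of 11698 protein-coding genes. The median difference of the inner ring was 0.56, and its summed level was 157.7 and 221.3 TPM, a ratio of 1.40.

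Genes of the membrane ring differed widely among themselves. NDC1, the transmembrane protein needed to build pores (ENSG00000058804, chromosome 1, 53765460 to 53838860), was 23.3 and 50.6 TPM, 2.17-fold higher (1.95 to 2.41). AAAS, which encodes ALADIN, a propeller protein that NDC1 tethers to the pore (ENSG00000094914, chromosome 12, 53307456 to 53324864), was 17.2 and 35.4 TPM, 2.05-fold higher (1.78 to 2.36). Its difference on the log2(TPM + 1) scale was 1.00 (0.995), just under 2-fold. POM121, a membrane nucleoporin with FG repeats, was 22.1 and 20.9 TPM with an interval that held equality. NDC1 and its partner AAAS were thus both about 2-fold higher, and POM121 was close to control. POM121 has the near-identical copy POM121C, so its value depends on how shared reads were counted. POM121C was 36.1 and 28.98 TPM. NUP210, the third membrane nucleoporin, whose expression is known to vary between cell types, was listed at 0 in both libraries, where 3 reads would be 0.0869 and 0.0903 TPM. Its paralog NUP210L rested on 6 and 3 reads, 0.241 and 0.125 TPM, and no fold is given for it.

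**Figure D2:**
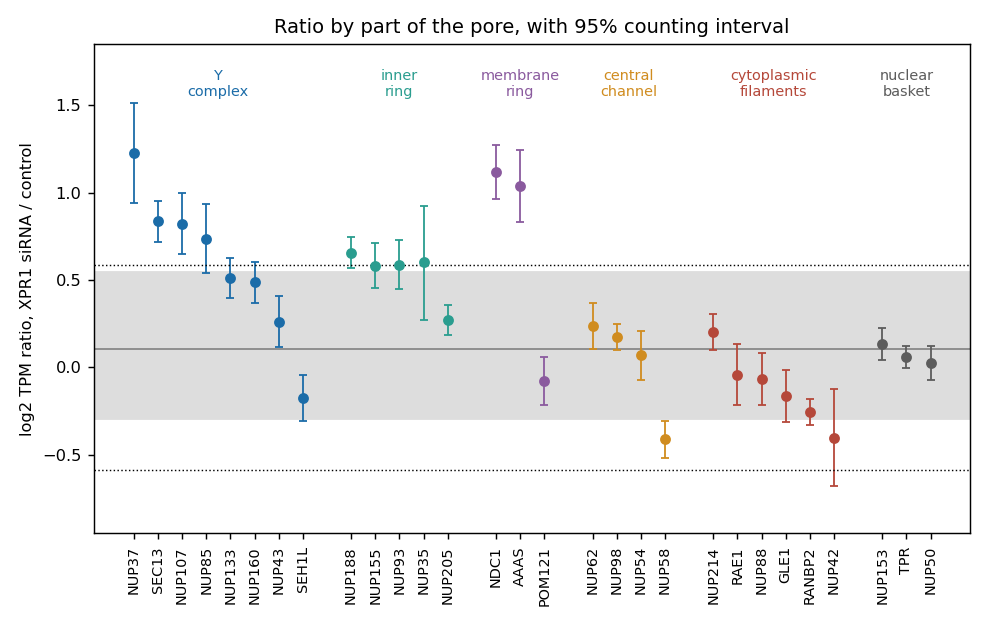
Ratio of XPR1-siRNA to control TPM (y axis, log2) for the 29 nucleoporins by part of the pore, with 95% counting intervals from 1 library per group. The grey band and line are the quartiles and the median of protein-coding genes averaging 1 TPM or more, and dotted lines mark 1.5-fold. Most ring genes lie above the band, and channel, filament and basket genes lie in it, apart from NUP58 and NUP42 just below.

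Channel genes were close to control. NUP62, NUP54 and NUP58 form the FG-repeat complex of the channel. NUP62 was 35.8 and 42.2 TPM, 1.18-fold higher (1.08 to 1.29). NUP54 was 47.1 and 49.4 TPM, with an interval that held equality. NUP58 was 39.4 and 29.6 TPM (ENSG00000139496, chromosome 13, 25301524 to 25349800), 1.33-fold lower (1.24 to 1.43), the lowest difference of any nucleoporin. NUP58 thus went from above NUP62 in control to below it with XPR1 siRNA. For NUP62, 21.1% of exonic bases are shared with other genes, 10.4% with ATF5 on the other strand (14.9 and 26.9 TPM), and since the library kit named in the labels (TruSeq RNA, version 2) keeps no strand, their reads cannot be told apart there. NUP98, whose transcript encodes both a GLFG-repeat protein of the channel and the Y complex subunit NUP96, was 67.1 and 75.7 TPM, 1.13-fold higher (1.07 to 1.19). The 4 channel genes had a median difference of 0.12 and summed levels of 189.4 and 197.0 TPM.

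Of the 6 genes of the cytoplasmic filaments, 5 were below control, all within 1.5-fold. RANBP2, the large Ran-binding and SUMO ligase protein of the filaments, was 61.9 and 51.8 TPM, 1.19-fold lower (1.13 to 1.26). It shares sequence with the RGPD genes, none of which exceeded 1.502 TPM. NUP42, a partner of GLE1 at chromosome 7, 23181827 to 23201011, had 14.2 and 10.8 TPM and was 1.32-fold lower (1.09 to 1.599). GLE1, which activates the helicase DDX19 that strips mRNA of export factors, was 52.8 and 47.1 TPM, 1.12-fold lower (1.01 to 1.24). None of these 3 reached 1.5-fold. NUP88 was 34.0 and 32.5 TPM, with 18.7% of its exonic bases shared with RPAIN and RABEP1, and RAE1, an mRNA export and mitotic spindle factor, was 22.3 and 21.7 TPM, both with intervals that held equality. NUP214, the FG nucleoporin bound to NUP88, was 26.4 and 30.3 TPM, 1.15-fold higher (1.07 to 1.23). The median difference of the filament genes was -0.11, and their summed level was 211.6 and 194.2 TPM.

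The 3 basket genes were among the 11 most abundant nucleoporins in both libraries, and all lay within 1.5-fold of control. TPR, the main filament of the basket, was 79.7 and 82.9 TPM, from 4153 and 4158 reads, and its interval (0.997 to 1.09) held equality. NUP153, which anchors TPR, was 77.0 and 84.5 TPM, 1.10-fold higher (1.03 to 1.17). NUP50, a mobile nucleoporin that helps importins release cargo, was 47.8 and 48.7 TPM, with an interval of 0.950 to 1.09. The direction of NUP54, TPR and NUP50 depended on the scaling and turned below control with upper-quartile or trimmed-mean scaling.

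**Figure D3:**
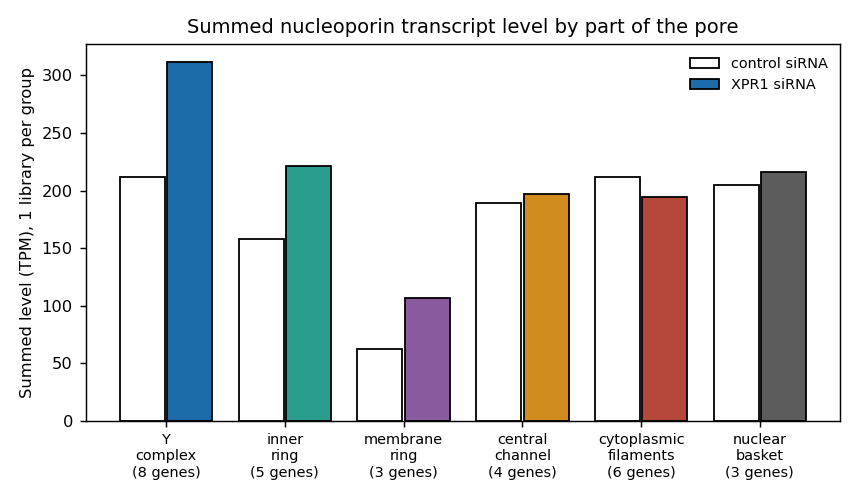
Summed transcript level (y axis, TPM) of the nucleoporins of each part of the pore in the control library (white bars) and the XPR1-siRNA library (coloured bars), with 1 library per group and no error. The Y complex summed to 211.4 and 311.8 TPM and the basket to 204.5 and 216.1 TPM.

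Set side by side, 12 of the 13 Y complex and inner ring genes had a larger difference than any of the 13 channel, filament and basket genes, the highest of which was NUP62 at 0.23. The exception was SEH1L. NUP43, at 0.255, was close to NUP62, and their counting intervals overlapped (1.08 to 1.32 and 1.08 to 1.29). With a trend on length removed, NUP43 (0.144) fell below NUP62 (0.146) and NUP214 (0.152). The split also depends on how genes were assigned. AHCTF1, a Y complex subunit outside the naming rule, was listed with the mitotic partners. It was 85.1 and 71.6 TPM, 1.19-fold lower (1.13 to 1.25). NUP98, which also encodes the Y complex subunit NUP96, was counted with the channel. This division of the parts was drawn after the values were seen and carries no test. The 13 ring genes summed to 369.1 and 533.1 TPM, a ratio of 1.44, and the 13 others to 605.6 and 607.3 TPM, a ratio of 1.00. All 29 summed to 1037 and 1247 TPM, and nearly all of the gain was in the rings and their membrane anchors. The order of levels was largely the same in both libraries (Spearman's rho 0.88 across 29 genes, which share the libraries and are not replicates). TPR and NUP153 were the 2 most abundant in both. NDC1 moved from rank 18 to rank 9 and NUP58 from rank 12 to rank 20.

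Shares of the other transport lists are set against the 20.7% of protein-coding genes called higher and the 11.1% called lower. Among these lists, only the lists of the lamina and of mitotic partners had medians as high as the nucleoporins. Of 17 expressed import receptors, 2 were called higher (11.8%), none was called lower, and the median was -0.04. KPNA2, an importin alpha of dividing cells, was 125.6 and 296.0 TPM, 2.36-fold higher (2.22 to 2.50), and IPO13 19.9 and 31.5 TPM. KPNA5 (5.38 and 3.39 TPM) and KPNA4 (109.0 and 74.9 TPM) had the lowest differences of that list. Of 8 export receptors, 2 were higher (25%) and 1 lower (12.5%), near the background, with a median of 0.04. CSE1L, which returns importin alpha to the cytoplasm, was 78.8 and 168.7 TPM, 2.14-fold higher (2.00 to 2.29), and XPO1, the main protein exporter, 46.7 and 73.6 TPM. XPOT, which exports tRNA, was 275.5 and 139.9 TPM, 1.97-fold lower (1.90 to 2.04), and XPO5, which exports microRNA precursors, 69.3 and 49.1 TPM. KPNA2 and its recycling factor CSE1L were thus both more than 2-fold higher.

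Of 10 Ran cycle genes, 2 were higher (20%, near the background), none was lower, and the median was 0.13. RANBP1 was 42.8 and 70.9 TPM and NUTF2, which imports Ran, 58.6 and 89.9 TPM. SENP2 was 32.4 and 25.9 TPM, and RANGRF rested on 10 and 7 reads. Of 21 mRNA export genes, 4 were higher (19.0%, near the background) and 1 lower (4.76%), with a median of 0.08. THOC3 was 5.42 and 14.3 TPM and the centrin CETN2 63.3 and 143.0 TPM. NXT1, a partner of the export receptor NXF1, was 86.6 and 54.7 TPM, and DDX19B, the helicase that GLE1 activates, 17.1 and 12.8 TPM.

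Of 18 lamina and envelope genes, 8 were higher and none lower (44.4%, beside the 20.7% and 11.1% of protein-coding genes), with a median of 0.24. SYNE2, a nesprin, was 7.33 and 16.6 TPM, and TMPO, a lamin-binding membrane protein, 38.8 and 83.0 TPM. LEMD2 was 28.4 and 25.4 TPM and TMEM43 97.1 and 81.5 TPM. Of 12 pore assembly and mitotic partners, 2 were higher (16.7%, below the background), none was lower, and the median was 0.30. These 2 were CDK1, the kinase that drives pore disassembly, at 23.9 and 55.5 TPM, 2.32-fold higher (2.06 to 2.62), and its cyclin CCNB1 at 83.5 and 187.1 TPM. SENP1 was 23.3 and 19.5 TPM. CDK1 and CCNB1 were higher in the same library as the 7 nucleoporins called higher, and their part in those differences was not tested.

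**Figure D4:**
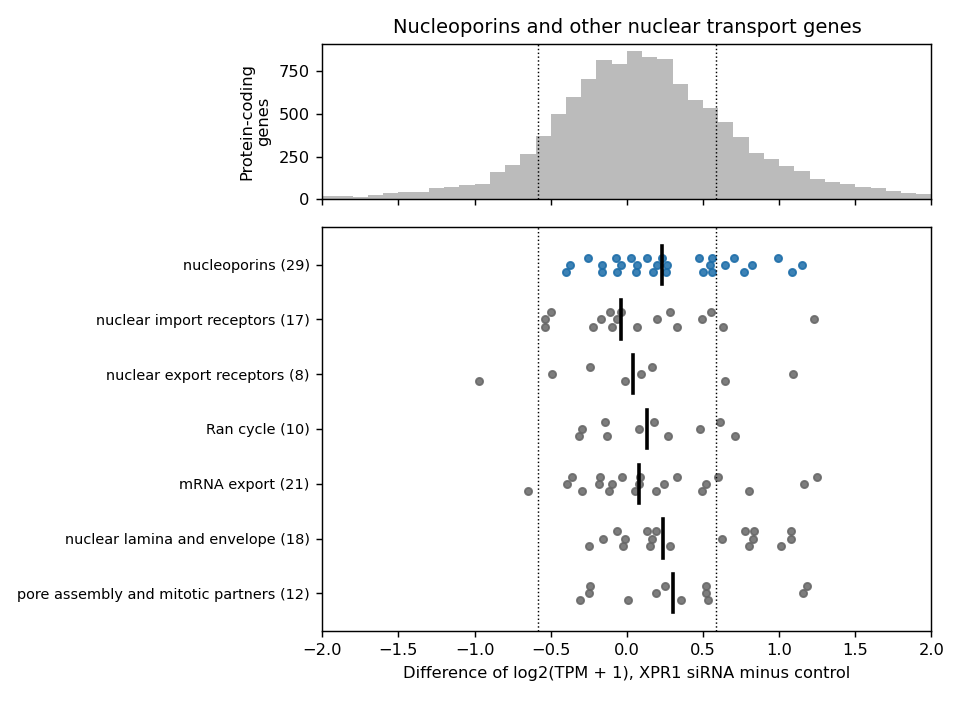
Difference of log2(TPM + 1), XPR1 siRNA minus control (x axis), for each nucleoporin (blue) and each gene of 6 other nuclear transport lists (grey) averaging 1 TPM or more, with the median as a black bar, the number of genes in parentheses and 1.5-fold as dotted lines. The upper panel counts all protein-coding genes in the plotted range, and the nucleoporin median of 0.23 lies near those of the lamina list (0.24) and the mitotic partners (0.30).

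In position, 3 nucleoporins lie head to head with another protein-coding gene, with starts less than 1000 bases apart and no shared exonic bases. Genes on the other strand that share exonic bases with a nucleoporin are not counted here. Among them are PCMT1 with NUP43 (PCMT1 43.7 and 56.2 TPM) and RPAIN with NUP88 (RPAIN 12.4 and 10.2 TPM). No share of head-to-head pairs over all genes is given. NUP37 starts 61 bases from PARPBP, which was 5.79 and 9.65 TPM, 1.67-fold higher (1.31 to 2.12). NUP188 starts 80 bases from DOLK, which was 18.5 and 29.7 TPM, 1.61-fold higher (1.31 to 1.97). TPR starts 145 bases from ODR4, which was 24.7 and 19.5 TPM, a difference of -0.33. In the first 2 pairs both genes were called higher, and in the third neither gene was called.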

How the data were processed

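RNA of TPC-1 cells was sequenced in 2 libraries, 1 per group. Per the submitters' processing notes, Trimmomatic 0.38, featureCounts 2.0.0, FastQC, MultiQC and the GRCh38 build were used. No aligner or annotation is named there or in the labels. What the authors deposited is TPM, and both libraries sum to 1000000. The members and gene lists were chosen with earlier results of these data known. Symbols came from a table of gene identifiers (58472 of 58884 matched), lengths and positions from GENCODE 29. The comparison used log2(TPM + 1) for genes averaging 1 TPM or more. By rule the named genes are all members, XPR1, and the 2 highest and 2 lowest differences of each transport list. Cell type markers, near-copies, AHCTF1, overlapping or head-to-head neighbours and partners in COPII and GATOR2 are named besides. AHCTF1, neighbours and partners were chosen after values were seen.

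Reads were recovered as TPM times exonic length over the value of 1 read. Among genes of 10 reads or fewer, 92.2% and 92.4% were whole to within 0.01, but only 9 of the 29 expressed nucleoporins were in both libraries, so most intervals here are approximate. Reads of members ran from 134 to 4158. Intervals cover counting error only, and PCR copies of a molecule count as separate reads. Python 3.11.15, pandas 2.3.3 and scipy 1.17.1 were used, and the scripts were tested on simulated data. Alternatives were pseudocounts of 0.1 and 5, floors of 0.1 and 5 TPM, 3 scalings, protein-coding genes only, lowess trends on level or length (fraction 0.3), recovered reads, omission of POM121 and NUP210L, and a 2-fold threshold. Planned protein motif counts were not made.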

Additional observations from a re-analysis of the deposited data

How the results depend on the processing

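Across the alternatives, the number of nucleoporins at least 1.5-fold higher was 6 to 9 of about 29, and it was 2 at a 2-fold threshold. The share of protein-coding genes called higher ran from 13.9% (pseudocount 5, 7 of 29 members) to 23.1% (pseudocount 0.1, 9 of 29 members). It was 8.75% at 2-fold. No nucleoporin was called lower under any alternative, where 7.57% to 13.7% of protein-coding genes were, and 4.57% at 2-fold. The median difference lay between 0.14 and 0.24 and stayed above that of protein-coding genes in each setting, which was 0.01 with upper-quartile scaling. Of the values of single members under these alternatives, 251 stayed within the member's counting interval and 10 left it, and no called member changed direction. NUP37, SEC13, NUP107, NUP85, NDC1 and AAAS were called higher in all 10 settings run for single members, and NUP188 in 7. No paired analysis was possible because there was 1 library on each side, and for the same reason no replicate could be left out. NUP210L had 6 and 3 reads, too few for a fold at this depth, and whether the 0 listed for NUP210 reflects depth, counting or lack of the transcript was not tested.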

Other observations

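Subunits that the pore shares with other complexes were set beside their partners there, in lists chosen after values were seen. SEC13 was 1.78-fold higher, while SEC31A, its partner in the COPII coat, was 99.7 and 118.1 TPM, 1.18-fold higher (1.13 to 1.24). The coat subunits SEC24A, SEC24B, SEC24C and SEC24D were between 1.09-fold higher and 1.31-fold lower, SEC23A was 61.9 and 78.5 TPM and SEC23B 82.3 and 62.5 TPM. The small GTPase SAR1A, which starts coat assembly, was 74.5 and 127.0 TPM, 1.70-fold higher (1.615 to 1.80). SEC31B was 9.20 and 5.62 TPM. In GATOR2, which signals amino acid supply to mTORC1, MIOS was 15.7 and 13.4 TPM, WDR24 5.45 and 5.67 TPM and WDR59 22.4 and 24.8 TPM, all within 1.5-fold as SEH1L was. SEC13, also a subunit of GATOR2, was the only 1 of the 5 listed that was called higher.

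NUP62CL, the paralog left out of the set, was 1.40 and 2.51 TPM.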
